A study of Mus musculus with 12 samples.

Results

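Interferon-stimulated genes are genes that a cell switches on after interferon binds its receptor. A list of 42 mouse genes of this kind was taken by gene symbol from a table of 17995 genes, and 40 of them had a row. The list was chosen with earlier results of these data known. Mx1 and Mx2 were not analysed here. The 40 genes were followed through 12 RNA-seq libraries of C18-4 cells, a line described as mouse spermatogonial stem cells, and TM4 cells, a line described as mouse Sertoli cells. Cells of each line had been treated with shM5, a mixture of short hairpin RNAs against the mRNA of the muscarinic acetylcholine receptor M5, or with the control hairpin shNC. There were 3 libraries in each of the 4 groups, C18-4 shNC, C18-4 shM5, TM4 shNC and TM4 shM5. All groups, the controls included, carried a hairpin vector and its transfection reagent, and no untreated cells were among the 12 libraries. The labels give IRC as the strain of all samples and no age, dose or time. Each group is 1 established line, and nothing says that the 3 libraries of a group came from separate cultures, so the p-values measure only the spread between these libraries, which may be technical. Values are RPKM, read counts divided by gene length and by library size, and so allow levels to be compared between genes.

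Cells make type I interferon after sensors such as RIG-I and MDA5 meet foreign or misplaced nucleic acid. The interferon is bound by its receptor on the same or neighbouring cells, the receptor kinases switch on transcription factors, and a complex that holds STAT2 and IRF9 binds the interferon-stimulated response element (ISRE) in the promoters of target genes. Interferon gamma acts through another promoter element, the gamma-activated site (GAS). The target genes include more of the sensors and factors of the same pathway, enzymes and binding proteins that block viral replication, guanylate-binding proteins and parts of the antigen-presentation machinery. In the testis, Sertoli cells are among the cells that respond to interferon.

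The labelled cell types were checked against marker genes. Of 14 spermatogonial markers 11 were in the table, and in C18-4 cells 9 of them, Gfra1, Ret, Zbtb16, Ddx4, Dazl and Kit included, were at most 0.34 RPKM in any library. The other 2 were Id4 at 1.64 to 4.71 RPKM and Etv5 at 1.63 to 2.29 RPKM, while the Sertoli and somatic marker Wt1 was at 53.9 to 72.3 RPKM. TM4 cells had Sox9 at 1.11 to 1.74 RPKM, but Wt1 reached only 0.15 RPKM and Amh only 0.19 RPKM. The lines are therefore called by their names. The target of shM5, Chrm5, was listed at 0.01 RPKM in replicate 1 of TM4 shNC and replicate 2 of C18-4 shNC and at 0 in the other 10 libraries, so its mRNA does not check which libraries received shM5.

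In TM4 cells replicate 3 of shNC stood apart from the other controls. Among 11016 genes tested in TM4 cells, replicates 1 and 2 of shNC were above the other 4 libraries for 35.4% and below them for 40.7%, so for most genes replicate 3 of shNC lay on the side of the shM5 libraries. In C18-4 cells replicate 3 of both groups was above the other 4 libraries for 34.4% of 11611 genes. Results in TM4 cells are therefore given with and without replicate 3 of shNC. Reads per library were not given, so the counting error of each value is unknown.

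The promoters of the list are shown first, because the response element is what these genes are known to share. Windows from 250 bases before to 50 bases after the start of transcription were available for 33 of the 40 genes (RefSeq, build GRCm38.p6) and not for Dhx58, Oas2, Usp18, Rtp4, Parp9, Parp14 and Zbp1. The ISRE core, searched on both strands as GAAA followed by any 2 bases and a second GAAA, was in the windows of 16 of the 33 genes (48.5%), against 3.99% of 27025 genes with a window. The GAS letters TTCNNNGAA were in 9 of the 33 (27.3%), against 9.55%, and in 4 of these, Oas1a, Bst2, Gbp7 and Eif2ak2, the window held both motifs. A match is a run of letters and no sign of binding. The following stretches lie before the start of transcription and are written 5′ to 3′ along the strand of the gene, with the matches in capitals. The first 6 carry the ISRE core, in more than 1 copy except in Rsad2, and the last carries a GAS.
Ifit1, chr19:34640765-34640833, plus strand: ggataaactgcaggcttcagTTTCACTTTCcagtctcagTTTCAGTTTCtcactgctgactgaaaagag
Ifit3, chr19:34583353-34583436, plus strand: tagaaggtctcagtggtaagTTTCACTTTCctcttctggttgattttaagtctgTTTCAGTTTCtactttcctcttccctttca
Isg15, chr4:156200855-156200916, minus strand: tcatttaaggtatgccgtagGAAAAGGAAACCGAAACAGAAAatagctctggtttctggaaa
Oas1a, chr5:120907526-120907565, minus strand: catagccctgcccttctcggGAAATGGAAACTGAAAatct
Rsad2, chr12:26456543-26456592, minus strand: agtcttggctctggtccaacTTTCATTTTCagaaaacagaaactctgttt
Gbp3, chr3:142559979-142560034, plus strand: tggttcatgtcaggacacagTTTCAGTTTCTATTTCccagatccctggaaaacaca
Irf1, chr11:53769904-53769952, plus strand: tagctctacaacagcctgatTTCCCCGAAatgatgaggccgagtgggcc

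The stretch of Ifit3b, chr19:34607749-34607832 on the plus strand, was identical letter for letter to that of Ifit3. The transcripts of the pair overlap as well: 51.2% of the 50-base words of the Ifit3 transcript (GENCODE M21) were also found in other genes, all of them in Ifit3b, and for Oas1a the share was 57.6%, all of it in Oas1g. Reads of these genes could have been split between copies, and their values are uncertain. Smaller shares were found for Herc6 (23.8%), Rtp4 (13.6%), Gbp7 (12.8%) and Ifit1 (7.13%). Several of the genes are also neighbours on their chromosomes, namely Rsad2 and Cmpk2, Ifit2 and Ifit3, Gbp3 and Gbp7, Oasl1 and Oasl2, Oas2 and Oas3, and Psmb8, Psmb9 and Tap1. The promoter windows of Psmb9 and Tap1 overlap by 275 bases on opposite strands.

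**Figure D1:**
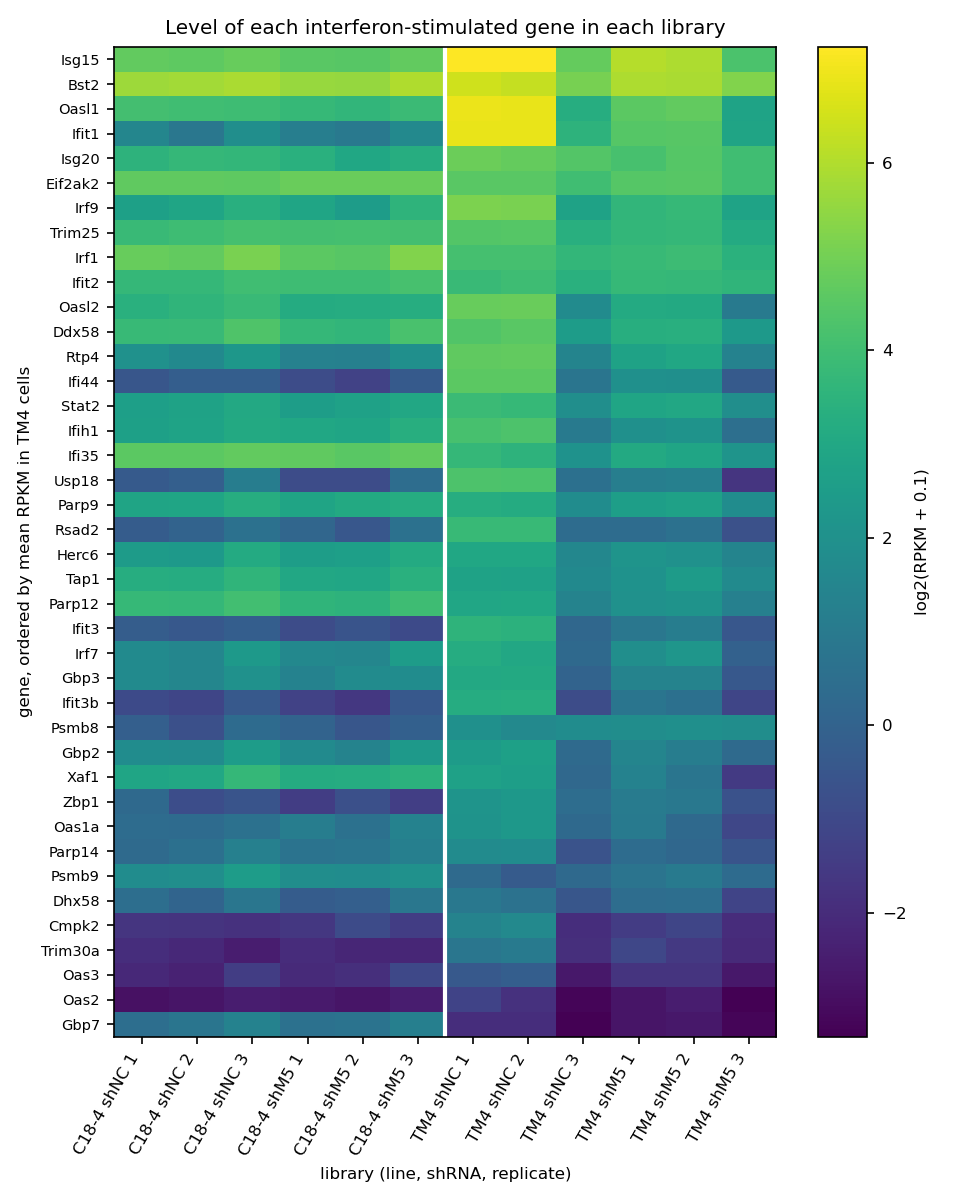
Level of each of the 40 genes with a row (vertical axis, ordered by the mean in TM4 cells) in each of the 12 libraries (horizontal axis), with colour giving log2(RPKM + 0.1). In TM4 cells replicates 1 and 2 of shNC are the brightest columns for most genes, replicates 1 and 2 of shM5 lie below them and replicate 3 of both groups is darkest, while the C18-4 columns differ less.

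In TM4 cells the interferon-stimulated genes stood at 3 levels. They were highest in replicates 1 and 2 of shNC, intermediate in replicates 1 and 2 of shM5 and lowest in replicate 3 of both groups. Of the 37 genes tested (mean of at least 0.5 RPKM in TM4 cells), 32 kept this order without overlap between the levels, against 10.2% of all 11016 genes, and the exceptions were Isg20, Oas1a, Rsad2, Psmb8 and Psmb9. Cmpk2 and Trim30a, counted among those in order, passed the filter only through replicates 1 and 2 of shNC. In the other TM4 libraries Cmpk2 was at most 0.36 RPKM and Trim30a at most 0.38 RPKM. Summed over the list, the libraries of shNC stood at 898, 884.7 and 209 RPKM and those of shM5 at 362, 366 and 183 RPKM. Replicate 1 was higher than replicate 3 by a median over the 37 genes of 4.69-fold with shNC and 2.34-fold with shM5. This order of the libraries was chosen after the values were seen and was given no test.

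In C18-4 cells the sum over the list differed less between libraries than in TM4 cells. Some single genes varied more than the sum, Usp18 most, by 4.75-fold between its lowest and highest library. The sum over the list was 324, 328 and 397 RPKM with shNC and 316, 306 and 390.4 RPKM with shM5. Replicate 3 of both groups was above the other 4 libraries for 23 of 35 genes, against 34.4% of all genes, which is the opposite of its place in TM4 cells.

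**Figure D2:**
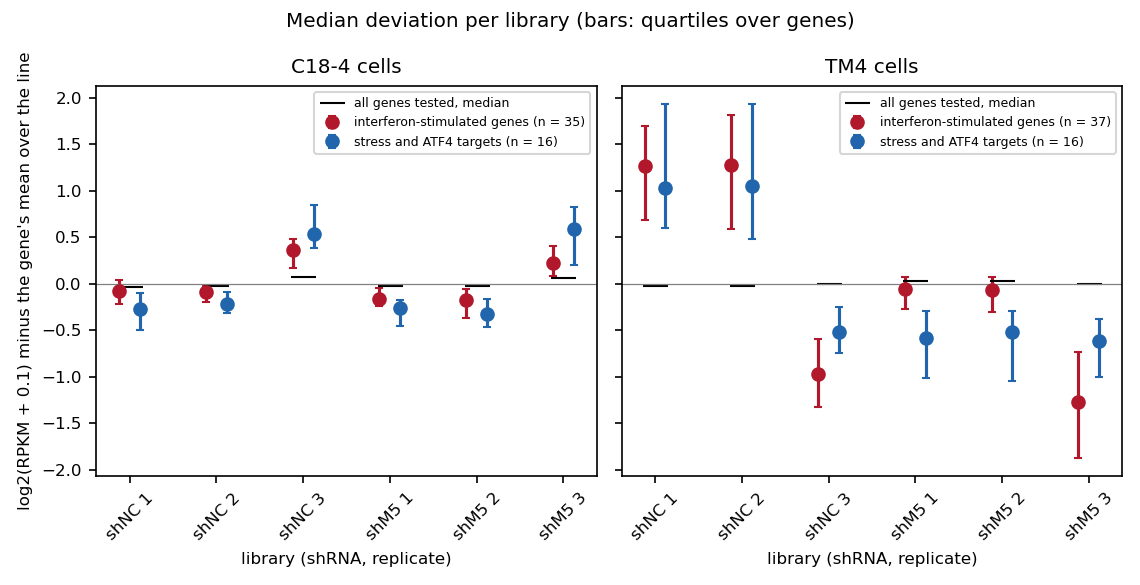
Deviation of each library from the mean of its line (vertical axis, log2(RPKM + 0.1) minus the mean over the 6 libraries of the gene) for the interferon-stimulated genes and for 16 stress regulators and ATF4 targets, with points at the median over genes, bars at the quartiles over genes and black lines at the median of all genes tested. The interferon-stimulated genes in TM4 cells lie at 1.27 and 1.28 in replicates 1 and 2 of shNC, at -0.05 and -0.07 in replicates 1 and 2 of shM5 and at -0.97 and -1.27 in replicate 3 of shNC and shM5, whereas the stress genes have only 2 levels.

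The Ifit genes, whose proteins bind foreign RNA and hold back its translation, included Ifit1, the gene with the largest difference between the lines with shNC. In TM4 cells Ifit1 was at 119, 119 and 11.1 RPKM with shNC and 21.9, 22.1 and 7.15 RPKM with shM5. Ifit3 was at 11.4, 11.01 and 1.06 RPKM with shNC and 1.71, 2.10 and 0.63 RPKM with shM5. Its near copy Ifit3b was at 9.12, 9.32 and 0.45 RPKM with shNC and 1.62, 1.39 and 0.36 RPKM with shM5. In all 3 the values of replicates 1 and 2 of shNC were far above the other 4 libraries. Ifit2 varied least of the 4, at 14.2, 15.5 and 10.3 RPKM with shNC and 13.2, 12.97 and 12 RPKM with shM5. In C18-4 cells Ifit1 stood at 2.79, 1.73 and 3.60 RPKM with shNC and 2.21, 1.85 and 3.03 RPKM with shM5. C18-4 levels of Ifit2 were 12.97, 12.9 and 15.8 RPKM with shNC and 15.2, 15.4 and 17.8 RPKM with shM5. Ifit2 thus differed little between the lines, while the other 3 were low in C18-4 cells. Ifit3 was there at 0.76, 0.64 and 0.80 RPKM with shNC and 0.45, 0.57 and 0.42 RPKM with shM5, where the groups did not overlap. Ifit3b was at 0.42, 0.36 and 0.68 RPKM with shNC and 0.32, 0.23 and 0.65 RPKM with shM5.

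Isg15, a ubiquitin-like protein that is joined to other proteins after interferon, was the most abundant of the list in TM4 cells, at 150.3, 149 and 26.4 RPKM with shNC and 67.1, 60.4 and 18.8 RPKM with shM5. Its C18-4 values were 25.9, 24.4 and 27.1 RPKM with shNC and 23.3, 22.5 and 25.6 RPKM with shM5. Usp18, the protease that removes ISG15 and damps receptor signalling, spanned the widest range of the genes tested in TM4 cells, at 19.4, 18.9 and 1.37 RPKM with shNC and 2.19, 2.33 and 0.21 RPKM with shM5. In C18-4 cells Usp18 was at 0.69, 0.81 and 2.09 RPKM with shNC and 0.44, 0.44 and 1.27 RPKM with shM5. Isg15 was thus well above its C18-4 level in 4 of the 6 TM4 libraries, and Usp18 in replicates 1 and 2 of shNC. Herc6, the mouse ligase that attaches ISG15, was at 7.67, 7.71 and 2.89 RPKM with shNC and 4.30, 4 and 2.61 RPKM with shM5 in TM4 cells and at 5.43, 5.10 and 8.68 RPKM with shNC and 5.76, 6.16 and 8.60 RPKM with shM5 in C18-4 cells. Isg20, an exonuclease, was at 28.9, 26.9 and 20.9 RPKM with shNC and 17.8, 21.6 and 16.01 RPKM with shM5 in TM4 cells, and replicate 3 of shNC lay above 2 of the 3 shM5 libraries. Isg20 was at 11.2, 13.1 and 12.8 RPKM with shNC and 10.3, 7.62 and 9.31 RPKM with shM5 in C18-4 cells, with no overlap between the groups.

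Sensors of viral RNA on the list include Ifih1 and Ddx58, with their relative Dhx58. Ifih1, which encodes MDA5, was at 17.99, 19.5 and 1.90 RPKM with shNC and 3.78, 4.17 and 1.36 RPKM with shM5 in TM4 cells and at 6.38, 6.89 and 8.47 RPKM with shNC and 7.64, 7.25 and 9.78 RPKM with shM5 in C18-4 cells. Ddx58, which encodes RIG-I, was at 20.6, 23.1 and 5.59 RPKM with shNC and 9.72, 9.91 and 4.94 RPKM with shM5 in TM4 cells and at 13.9, 14.1 and 20.1 RPKM with shNC and 12.9, 12.4 and 18.6 RPKM with shM5 in C18-4 cells. Dhx58, which encodes the related regulator LGP2, was lower, at 1.78, 1.49 and 0.61 RPKM with shNC and 1.26, 1.31 and 0.35 RPKM with shM5 in TM4 cells and at 1.30, 0.95 and 1.68 RPKM with shNC and 0.73, 0.82 and 1.72 RPKM with shM5 in C18-4 cells. All 3 kept the 3 levels in TM4 cells. Zbp1, a sensor of Z-form nucleic acid, was at 4.37, 4.88 and 1.26 RPKM with shNC and 2, 1.76 and 0.54 RPKM with shM5 in TM4 cells and at 1.11, 0.47 and 0.57 RPKM with shNC and 0.28, 0.50 and 0.29 RPKM with shM5 in C18-4 cells.

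Among the factors that carry the signal, Stat2 was at 14.4, 13.4 and 3.61 RPKM with shNC and 7.38, 8.02 and 3.63 RPKM with shM5 in TM4 cells and at 6.13, 6.71 and 8.15 RPKM with shNC and 5.85, 6.42 and 7.87 RPKM with shM5 in C18-4 cells. Its DNA-binding partner Irf9 was at 35.01, 34.9 and 6.62 RPKM with shNC and 12.2, 13.4 and 6.86 RPKM with shM5 in TM4 cells and at 6.34, 7.23 and 10.1 RPKM with shNC and 7.38, 5.62 and 11.7 RPKM with shM5 in C18-4 cells. Both genes kept the 3 levels in TM4 cells. Irf7, which amplifies interferon production, was at 9.11, 7.98 and 1.11 RPKM with shNC and 3.61, 4.56 and 0.87 RPKM with shM5 in TM4 cells and at 3.23, 2.74 and 4.97 RPKM with shNC and 2.94, 2.80 and 5.68 RPKM with shM5 in C18-4 cells. Irf1, with the GAS shown above, varied less, at 17.5, 17.3 and 12.6 RPKM with shNC and 13.8, 14.98 and 10.7 RPKM with shM5 in TM4 cells and 27.01, 25.6 and 34.5 RPKM with shNC and 23.7, 22.6 and 37.1 RPKM with shM5 in C18-4 cells.

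The antiviral enzymes were next. Oasl1 and Oasl2 belong to the oligoadenylate synthetase family. Oasl1 was at 120.0, 117 and 9.34 RPKM with shNC and 23.4, 25.96 and 6.84 RPKM with shM5 in TM4 cells and at 16.6, 15.9 and 15.6 RPKM with shNC and 13.5, 12.3 and 14.5 RPKM with shM5 in C18-4 cells, where the groups did not overlap. Oasl2 was at 27.6, 27.8 and 3.31 RPKM with shNC and 8.62, 8.50 and 1.91 RPKM with shM5 in TM4 cells and at 10.2, 11.9 and 13.96 RPKM with shNC and 8.94, 9.16 and 9.44 RPKM with shM5 in C18-4 cells, again without overlap in C18-4 cells. The synthetase Oas1a, whose reads could be shared with Oas1g, was at 4.23, 4.84 and 1.11 RPKM with shNC and 1.89, 1.11 and 0.38 RPKM with shM5 in TM4 cells and at 1.23, 1.19 and 1.44 RPKM with shNC and 2.14, 1.44 and 2.44 RPKM with shM5 in C18-4 cells. Oas2 reached at most 0.34 RPKM and Oas3 at most 0.80 RPKM in any library, and neither was tested.

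Rsad2 encodes viperin, which makes a chain-terminating nucleotide from the product of Cmpk2, its neighbour on chromosome 12. Rsad2 was at 13.9, 13.7 and 1.24 RPKM with shNC and 1.24, 1.42 and 0.52 RPKM with shM5 in TM4 cells and at 0.74, 0.92 and 1.45 RPKM with shNC and 1.01, 0.63 and 1.42 RPKM with shM5 in C18-4 cells. Cmpk2 was at 2.57, 3 and 0.16 RPKM with shNC and 0.27, 0.36 and 0.15 RPKM with shM5 in TM4 cells and at 0.21, 0.20 and 0.18 RPKM with shNC and 0.23, 0.43 and 0.28 RPKM with shM5 in C18-4 cells, where it was too low to test. Both genes were highest in replicates 1 and 2 of TM4 shNC among the 12 libraries. Eif2ak2, which encodes the kinase PKR that stops translation on double-stranded RNA, was at 22.9, 22.8 and 16.1 RPKM with shNC and 21.9, 22.1 and 15.7 RPKM with shM5 in TM4 cells. In C18-4 cells it was at 25.02, 24.9 and 24.6 RPKM with shNC and 28.3, 28.4 and 28.1 RPKM with shM5, the only tested gene of the list with all shM5 libraries above all shNC libraries.

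Bst2 encodes tetherin, which holds budding virions on the cell surface, and was at 88.8, 79.8 and 33.9 RPKM with shNC and 61.2, 59.8 and 37.5 RPKM with shM5 in TM4 cells and at 51.2, 55.1 and 59.2 RPKM with shNC and 48.3, 47.8 and 63.4 RPKM with shM5 in C18-4 cells. Rtp4, known to damp antiviral signalling, was at 25.4, 25.6 and 2.64 RPKM with shNC and 6.76, 7.75 and 2.45 RPKM with shM5 in TM4 cells and at 3.92, 3.12 and 4.71 RPKM with shNC and 2.41, 2.32 and 3.71 RPKM with shM5 in C18-4 cells. In TM4 cells both kept the 3 levels. Trim25, the ubiquitin ligase that acts on RIG-I, was at 21.2, 21.8 and 9.86 RPKM with shNC and 12.6, 12.8 and 8.69 RPKM with shM5 in TM4 cells and at 14.2, 15.5 and 17.3 RPKM with shNC and 16.6, 17.4 and 16.8 RPKM with shM5 in C18-4 cells. Trim30a, of the same protein family, was at 1.65, 1.93 and 0.17 RPKM with shNC and 0.38, 0.24 and 0.14 RPKM with shM5 in TM4 cells and at most 0.16 RPKM in C18-4 cells. Bst2 was well expressed in both lines, whereas Trim30a was hardly present in C18-4 cells. Xaf1, which promotes cell death, was at 6.42, 5.95 and 1.08 RPKM with shNC and 2.49, 1.63 and 0.25 RPKM with shM5 in TM4 cells and at 7.22, 8.02 and 12.8 RPKM with shNC and 8.99, 9.11 and 10.97 RPKM with shM5 in C18-4 cells. Ifi44 was at 23.4, 23.5 and 1.61 RPKM with shNC and 3.79, 3.75 and 0.70 RPKM with shM5 in TM4 cells and at 0.60, 0.80 and 0.79 RPKM with shNC and 0.44, 0.32 and 0.70 RPKM with shM5 in C18-4 cells. Ifi35 was at 12.99, 11.1 and 4.07 RPKM with shNC and 8.31, 7.28 and 4.37 RPKM with shM5 in TM4 cells and, higher, at 23.6, 23.4 and 25.6 RPKM with shNC and 24.97, 23.1 and 25.9 RPKM with shM5 in C18-4 cells.

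Of the poly(ADP-ribose) polymerase family, Parp9 was at 9.37, 9 and 3.45 RPKM with shNC and 5.87, 6.57 and 3.38 RPKM with shM5 in TM4 cells and at 7.11, 7.36 and 9.34 RPKM with shNC and 7.05, 8.52 and 9.14 RPKM with shM5 in C18-4 cells. Parp12 was at 7.41, 7.61 and 2.57 RPKM with shNC and 3.92, 4.17 and 2.30 RPKM with shM5 in TM4 cells and at 13.2, 12.96 and 16.4 RPKM with shNC and 11.8, 11.3 and 15.5 RPKM with shM5 in C18-4 cells. Parp14 was at 3.34, 3.39 and 0.55 RPKM with shNC and 1.22, 1.04 and 0.56 RPKM with shM5 in TM4 cells and at 1.15, 1.41 and 2.32 RPKM with shNC and 1.51, 1.63 and 2.23 RPKM with shM5 in C18-4 cells. The 3 polymerases kept the 3 levels in TM4 cells, and Parp12 was higher in C18-4 cells. Guanylate-binding proteins are large GTPases that attack the vacuoles of intracellular pathogens. Gbp2 was at 5.39, 6.38 and 1.15 RPKM with shNC and 2.67, 2.12 and 1.14 RPKM with shM5 in TM4 cells and at 3.37, 3.34 and 5.54 RPKM with shNC and 3.26, 2.52 and 5.16 RPKM with shM5 in C18-4 cells. Gbp3 was at 8.10, 8.40 and 0.92 RPKM with shNC and 2.54, 2.54 and 0.65 RPKM with shM5 in TM4 cells and at 3.19, 2.75 and 3.91 RPKM with shNC and 2.49, 3.29 and 3.36 RPKM with shM5 in C18-4 cells. Its neighbour Gbp7 differed from both, at most 0.16 RPKM in TM4 cells and at 1.32, 1.61 and 2.45 RPKM with shNC and 1.43, 1.51 and 2.22 RPKM with shM5 in C18-4 cells.

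Of the 3 genes of antigen processing, Psmb8 and Psmb9 departed from the order of the rest and Tap1 did not. Psmb8, a subunit of the immunoproteasome, was at 3.79, 3.07 and 3.45 RPKM with shNC and 3.53, 3.73 and 3.50 RPKM with shM5 in TM4 cells, with no order of the libraries, and at 0.82, 0.50 and 1.18 RPKM with shNC and 0.94, 0.61 and 0.85 RPKM with shM5 in C18-4 cells. Psmb9, another subunit, was at 1.17, 0.72 and 1.13 RPKM with shNC and 1.55, 1.94 and 1.19 RPKM with shM5 in TM4 cells, the only tested gene of the list with all shM5 libraries above all shNC libraries there. In C18-4 cells Psmb9 was at 3.37, 3.61 and 5.58 RPKM with shNC and 3.46, 3.39 and 3.97 RPKM with shM5. Tap1, a subunit of the peptide transporter, was at 6.63, 6.53 and 3.15 RPKM with shNC and 4.04, 5.37 and 3.24 RPKM with shM5 in TM4 cells and at 9.45, 9.22 and 11.8 RPKM with shNC and 7.93, 7.47 and 10.4 RPKM with shM5 in C18-4 cells. Tap1 kept the 3 levels in TM4 cells although it shares its promoter region with Psmb9.

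**Figure D3:**
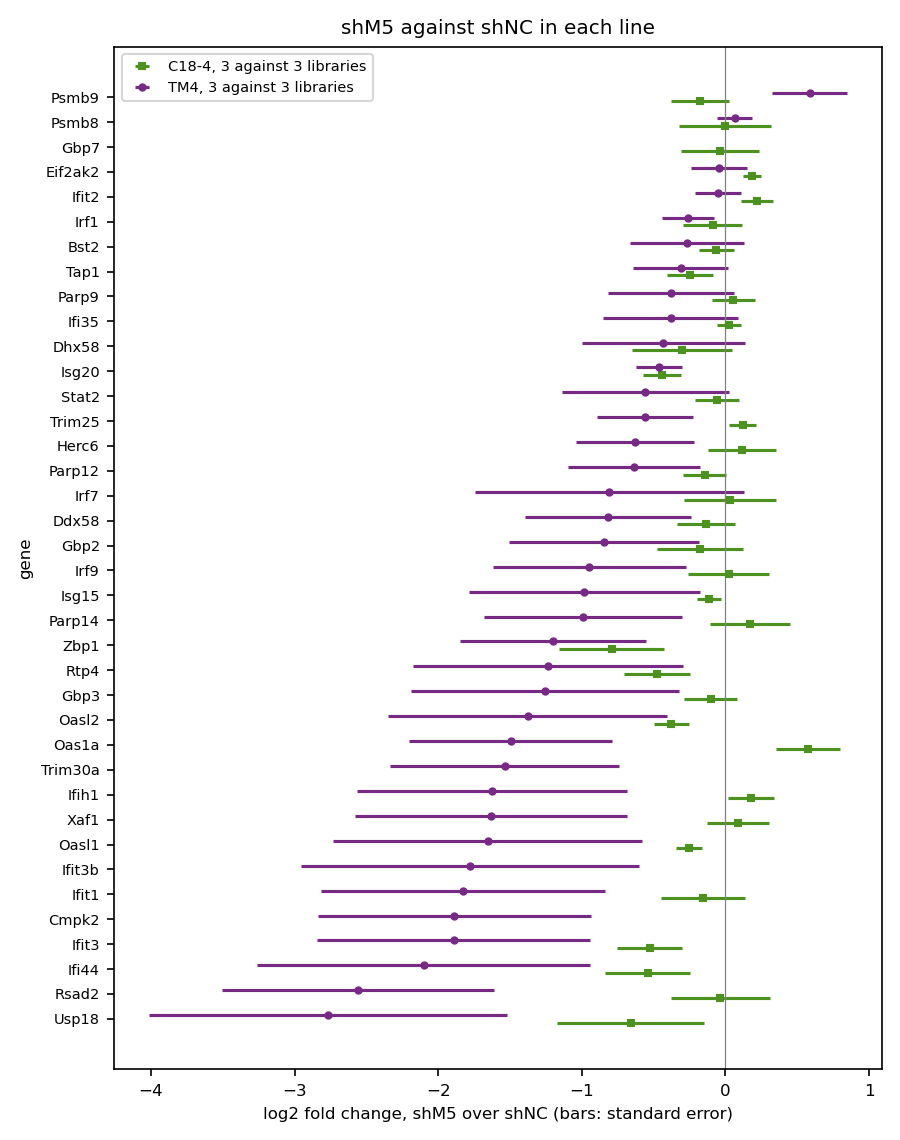
Log2 fold change of shM5 over shNC on the log2(RPKM + 0.1) scale (horizontal axis) for each gene tested (vertical axis) in TM4 and C18-4 cells, with bars at the standard error and 3 against 3 libraries. TM4 values reach -2.77 for Usp18 with wide bars, C18-4 values lie between -0.79 and 0.58, and no point of either line passed an adjusted p of 0.05.

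With all 6 TM4 libraries, the comparison of shM5 with shNC called 0 of the 37 genes, against 0 percent (0 of 11016) of all genes (limma on log2(RPKM + 0.1), adjusted p below 0.05). At an unadjusted p below 0.05 there were 2 of the 37 genes and 26 percent of all genes, and limma was the only tool run. The fold changes leaned one way: 35 of the 37 genes were lower with shM5 and 2 were higher, with a median log2 fold change of -0.95 against 0.04 over all genes tested. The median was -0.55 without replicate 1 of shNC and also without replicate 2, -1.75 without replicate 3 of shNC and -0.51 without replicate 3 of shM5. No gene of the list had all shM5 libraries below all shNC libraries, against 11.1% of all genes, and 1 had all of them above, against 15.7%. Replicate 3 of shNC lay below replicates 1 and 2 of shM5 for at least 32 of the 37 genes.

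On that scale the largest limma estimates in TM4 cells were those of Usp18 at -2.77 (SE 1.25, adjusted p = 0.194), Rsad2 at -2.56 (SE 0.95, adjusted p = 0.192) and Ifi44 at -2.10 (SE 1.16, adjusted p = 0.238). Among the other Ifit genes and enzymes, Ifit3 was at -1.89 (SE 0.95, adjusted p = 0.211), Cmpk2 at -1.89 (SE 0.95, adjusted p = 0.212), Ifit1 at -1.83 (SE 0.99, adjusted p = 0.232) and Ifit3b at -1.78 (SE 1.18, adjusted p = 0.302) in the same limma fit. The synthetases Oasl1, Oas1a and Oasl2 were at -1.66 (SE 1.07, adjusted p = 0.296), -1.50 (SE 0.71, adjusted p = 0.201) and -1.38 (SE 0.97, adjusted p = 0.326) by limma. For Xaf1, Ifih1 and Trim30a limma gave -1.63 (SE 0.95, adjusted p = 0.255), -1.62 (SE 0.94, adjusted p = 0.253) and -1.54 (SE 0.80, adjusted p = 0.219). The wide standard errors hold the distance of replicate 3 of shNC from replicates 1 and 2.

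Smaller limma estimates in TM4 cells were those of Gbp3 at -1.25 (SE 0.93, adjusted p = 0.348), Rtp4 at -1.24 (SE 0.94, adjusted p = 0.357) and Zbp1 at -1.20 (SE 0.65, adjusted p = 0.231). Parp14, Isg15 and Irf9 were at -0.99 (SE 0.69, adjusted p = 0.322), -0.98 (SE 0.80, adjusted p = 0.387) and -0.95 (SE 0.67, adjusted p = 0.328) by the same limma fit. Gbp2, Ddx58 and Irf7 were at -0.85 (SE 0.66, adjusted p = 0.368), -0.82 (SE 0.58, adjusted p = 0.325) and -0.81 (SE 0.94, adjusted p = 0.535) in limma. For Parp12, Herc6, Trim25 and Stat2 limma gave -0.64 (SE 0.46, adjusted p = 0.333), -0.63 (SE 0.41, adjusted p = 0.297), -0.56 (SE 0.33, adjusted p = 0.263) and -0.56 (SE 0.58, adjusted p = 0.491). The only estimate of at least 0.5 in the other direction was that of Psmb9 at 0.59 (SE 0.26, adjusted p = 0.193) in limma. Among the genes under 0.5 in size, Isg20 had the smallest spread relative to its change, at -0.46 (SE 0.16, adjusted p = 0.192) in limma.

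Without replicate 3 of TM4 shNC, limma called 33 of the 37 genes lower with shM5 and 1, Psmb9, higher, while it called 67.4% of all genes (30.9% lower and 36.5% higher). Read against that background the lower calls on the list, 33 of 37, were more frequent than among all genes and the higher calls rarer, as a description without a test. The 3 not called were Dhx58, Eif2ak2 and Psmb8. Cmpk2 and Trim30a, which passed the filter only through replicates 1 and 2 of shNC, are among the lower calls. Without it the limma estimate of Ifit1 was -2.96 (SE 0.44, adjusted p = 0.000625), that of Isg15 was -1.82 (SE 0.48, adjusted p = 0.011) and that of Usp18 was -4.00 (SE 0.80, adjusted p = 0.00292). Rsad2 was at -3.69 (SE 0.34, adjusted p = 5.53e-05), Oasl1 at -2.87 (SE 0.50, adjusted p = 0.00146) and Psmb9 at 0.68 (SE 0.26, adjusted p = 0.0496) in that limma fit. These calls thus rest on whether 1 library is counted, and the cause of its difference was not tested. In these bulk samples fewer responding cells and less RNA per cell cannot be told apart.

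Stress genes were measured beside the list because they were high in the same libraries. Their high place in those libraries, and the lower calls that come with it, follow from that choice and are no separate result. Of 16 stress regulators and targets of the transcription factor ATF4, all 16 were higher in replicates 1 and 2 of TM4 shNC than in the other 4 TM4 libraries, against 35.4% of all genes, and the same held for 35 of the 37 interferon-stimulated genes. The stress genes did not share the lower step, since replicate 3 of both groups was below the other 4 libraries for 2 of 16, against 32 of 37 for the interferon-stimulated genes and 14.3% of all genes. For example Asns, which makes asparagine, was at 529, 539 and 197 RPKM with shNC and 185, 189 and 177 RPKM with shM5 in TM4 cells. In C18-4 cells all 16 were highest in replicate 3 of both groups, against 34.4% of all genes. limma called 0 of the 16 between shM5 and shNC in TM4 cells, with 14 at an unadjusted p below 0.05, against 26 percent of all genes. In C18-4 cells it called 0 of them, with 1 at an unadjusted p below 0.05, against 12.3%. Without replicate 3 of TM4 shNC it called all 16 lower, against 30.9% of all genes. The part of the stress genes in the result was not tested. Sertoli markers were also high in the same libraries, with a sum of 95.8, 93.8 and 52.7 RPKM in TM4 shNC and 47.8 to 50.9 RPKM in TM4 shM5, while the spermatogonial markers summed to 9.72, 9.96 and 16.2 RPKM in TM4 shNC and 16.1 to 17.3 RPKM in TM4 shM5. Their part in the result was not tested. The leukocyte markers summed to 16.8 to 20.3 RPKM in TM4 shNC and 17.2 to 20.01 RPKM in TM4 shM5, with 10 of 12 markers in the table. Most of that sum was Cd14, at 15.1 to 18.8 RPKM, while the defining leukocyte gene Ptprc was at most 0.01 RPKM in TM4 cells and 0.04 RPKM in C18-4 cells. Of the tested spermatogonial, Sertoli and leukocyte markers, limma called none between shM5 and shNC in either line. At an unadjusted p below 0.05 there were 4 in TM4 cells and 3 in C18-4 cells, against 26 percent and 12.3% of all genes. With the replicate block in C18-4 cells it called 3 of the 8 Sertoli markers, Wt1 (adjusted p = 0.0202) and Rhox5 (adjusted p = 0.00632) higher and Gata4 (adjusted p = 0.0181) lower, against 11.9% of all genes.

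In C18-4 cells, limma called 0 of the 35 genes tested, against 0.586% of 11611 genes (0.293% higher and 0.293% lower), with 5 of the 35 at an unadjusted p below 0.05, against 12.3% of all genes. The fold changes were small, with 23 genes lower and 12 higher with shM5 and a median of -0.09 on the log2 scale against 0.00 over all genes. This lean turned without replicate 3 of shNC, to 13 lower and 22 higher (median 0.05), and without replicate 2 of shM5, to 17 lower and 18 higher (median 0.01). Without replicate 3 of shM5 there were 29 lower and 6 higher (median -0.26). The groups did not overlap, with shM5 lower, for 4 genes, Ifit3, Isg20, Oasl1 and Oasl2, against 9.55% of all genes, and with shM5 higher for 1, Eif2ak2, against 9.3%. The replicate numbers were taken to pair the C18-4 libraries, although the pairing of replicates 1 and 2 is less sure than that of replicate 3. With the replicate number as a block limma called 3 genes lower with shM5 and 0 higher, against 6.73% of all genes lower and 5.21% higher, 11.9% together. These were Oasl2 at -0.38 on the log2 scale (adjusted p = 0.0282 with the block), Rtp4 at -0.48 (adjusted p = 0.0329 with the block) and Isg20 at -0.44 (adjusted p = 0.0476 with the block, limma). Without the block the adjusted p of these 3 in limma was 0.281, 0.479 and 0.243. The share of the list called, 3 of 35, was near that of all genes.

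Estimates of at least 0.5 in size in C18-4 cells were those of Zbp1 at -0.79 (SE 0.36, adjusted p = 0.456), Usp18 at -0.66 (SE 0.51, adjusted p = 0.702) and Ifi44 at -0.54 (SE 0.30, adjusted p = 0.548) in limma. Ifit3 was at -0.53 (SE 0.23, adjusted p = 0.414) and Oas1a, in the opposite direction, at 0.58 (SE 0.22, adjusted p = 0.359) in the same limma fit. All 5 had low levels in this line, under 3 RPKM in every library. Ifit3b, Oas2, Oas3, Trim30a and Cmpk2 were not tested in C18-4 cells because their mean was under 0.5 RPKM.

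Whether the effect of shM5 differed between the lines was tested over all 12 libraries. limma called 0 of 37 genes, against 0.102% of 11773 genes (0.068% higher and 0.034% lower), with 4 of the 37 at an unadjusted p below 0.05, against 20.9% of all genes. The difference, TM4 minus C18-4, was negative for 35 genes and positive for 2, with a median of -0.74 on the log2 scale against 0.04 over all genes. The median was -0.38 and -0.37 without replicate 1 or 2 of TM4 shNC, -1.42 without replicate 3 of TM4 shNC and -0.30 without replicate 3 of TM4 shM5. Oas1a had the smallest adjusted p, with a limma difference of -2.07 (SE 0.79, adjusted p = 0.21), where its fold change was -1.50 in TM4 cells and 0.58 in C18-4 cells. The differences of Rsad2, Cmpk2 and Usp18 were -2.52 (SE 1.08, adjusted p = 0.226), -2.34 (SE 1.03, adjusted p = 0.233) and -2.11 (SE 1.45, adjusted p = 0.385) in limma. Cmpk2 passed the filter only through replicates 1 and 2 of TM4 shNC and was at most 0.43 RPKM in the other libraries. Psmb9 was the only gene with a difference of at least 0.5 in the other direction, at 0.76 (SE 0.34, adjusted p = 0.233) in limma. Without replicate 3 of TM4 shNC, limma called 25 of the 37 differences as lower in TM4 cells and 0 as higher, while it called 16.4% of all genes lower and 21.5% higher, 38% together.

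The other differences of at least 0.5 were all negative. For the sensors and the factors, Ifih1, Ddx58, Irf9, Irf7 and Stat2, limma gave -1.80 (SE 1.02, adjusted p = 0.308), -0.68 (SE 0.66, adjusted p = 0.533), -0.97 (SE 0.79, adjusted p = 0.458), -0.84 (SE 1.06, adjusted p = 0.643) and -0.50 (SE 0.64, adjusted p = 0.649). For Ifit1, Ifit3 and Ifit3b limma gave -1.67 (SE 1.11, adjusted p = 0.37), -1.36 (SE 1.03, adjusted p = 0.428) and -1.50 (SE 1.32, adjusted p = 0.493). The oligoadenylate synthetases Oasl1 and Oasl2 were at -1.40 (SE 1.16, adjusted p = 0.467) and -1 (SE 1.05, adjusted p = 0.569) in limma. Isg15, Herc6 and Trim25, of the ubiquitin-like pathways, were at -0.87 (SE 0.87, adjusted p = 0.549), -0.74 (SE 0.51, adjusted p = 0.386) and -0.68 (SE 0.37, adjusted p = 0.294) in limma. The guanylate-binding proteins Gbp2 and Gbp3 were at -0.67 (SE 0.78, adjusted p = 0.613) and -1.15 (SE 1.02, adjusted p = 0.495) in limma. Xaf1, Ifi44, Parp14 and Rtp4 were at -1.72 (SE 1.04, adjusted p = 0.335), -1.56 (SE 1.28, adjusted p = 0.463), -1.16 (SE 0.79, adjusted p = 0.382) and -0.76 (SE 1.04, adjusted p = 0.668) in limma.

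The lines were then compared with each other under the same hairpin. With shNC, limma called 8 genes higher in TM4 cells and 6 lower out of 38, against 55.2% of 11810 genes (20.5% higher and 34.7% lower). With shM5, it called 6 higher and 15 lower out of 36, against 71.5% of 11737 genes (29% higher and 42.5% lower). The median of all genes lay at -0.15 on the log2 scale with shNC and at -0.12 with shM5, and the median of the list at 0.30 and -0.53. With shNC the median of the list turned to -0.13 and -0.12 without replicate 1 or 2 of TM4 shNC and was 1.19 without replicate 3, or 0.19 and 0.45 without replicate 2 or 3 of C18-4 shNC. With shM5 it was -0.17 without replicate 3 of TM4 shM5. Quantile normalization moved the median of all genes to 0.01 and 0.02. With it, 13 genes were called higher and 5 lower with shNC, against 28.4% and 27.8% of all genes (56.2% together), and 10 higher and 13 lower with shM5, against 36.7% and 35.1% (71.8% together).

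Genes called higher in TM4 cells under both hairpins were Ifit1, Ifit3, Ifi44, Isg20, Zbp1 and Psmb8. Ifit1 was at 4.33 (SE 0.90, adjusted p = 0.00594) with shNC and at 2.66 (SE 0.43, adjusted p = 0.000834) with shM5 in limma. Psmb8 was at 1.98 (SE 0.29, adjusted p = 0.0011) with shNC and 2.05 (SE 0.16, adjusted p = 1.58e-05) with shM5 in limma, and its groups did not overlap in either comparison. Isg20 was at 1.04 (SE 0.15, adjusted p = 0.00122) with shNC and 1.02 (SE 0.15, adjusted p = 0.000432) with shM5 in limma, also without overlap. With shNC the limma estimates of Ifit3, Ifi44 and Zbp1 were 2.67 (SE 0.85, adjusted p = 0.0324), 3.57 (SE 0.97, adjusted p = 0.0182) and 2.01 (SE 0.54, adjusted p = 0.0173). With shM5 those of Ifit3, Ifi44 and Zbp1 were 1.31 (SE 0.39, adjusted p = 0.0177), 2.02 (SE 0.60, adjusted p = 0.0179) and 1.60 (SE 0.45, adjusted p = 0.0134) in limma. In C18-4 shM5 Ifit3, Ifi44 and Zbp1 averaged 0.48, 0.49 and 0.36 RPKM, so with shM5 they passed the filter only through TM4 cells. Rsad2 and Trim30a were called higher with shNC, at 2.54 (SE 0.89, adjusted p = 0.0458) and 2.16 (SE 0.74, adjusted p = 0.0426) in limma, while with shM5 Rsad2 was not called and Trim30a was too low to test. With shNC Trim30a passed the filter only through replicates 1 and 2 of TM4 shNC.

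Genes called lower in TM4 cells under both hairpins were Gbp7, Ifi35, Parp12, Irf1, Psmb9 and Tap1. Gbp7 had the largest estimate, -3.28 (SE 0.43, adjusted p = 0.000688) with shNC and -3.69 (SE 0.23, adjusted p = 4.09e-06) with shM5 in limma. Under both hairpins Gbp7 passed the filter only through C18-4 cells, since it was at most 0.16 RPKM in TM4 cells. Ifi35 was at -1.52 (SE 0.41, adjusted p = 0.0172) with shNC and -1.92 (SE 0.22, adjusted p = 0.000112) with shM5 in limma. Parp12 was at -1.40 (SE 0.41, adjusted p = 0.0232) with shNC and -1.89 (SE 0.23, adjusted p = 0.000187) with shM5 in limma. Irf1 was at -0.88 (SE 0.18, adjusted p = 0.00559) with shNC and -1.05 (SE 0.21, adjusted p = 0.00237) with shM5 in limma. Psmb9 was at -1.95 (SE 0.27, adjusted p = 0.00087) with shNC and -1.18 (SE 0.18, adjusted p = 0.000613) with shM5 in limma. Tap1 was at -0.96 (SE 0.30, adjusted p = 0.0307) with shNC and -1.02 (SE 0.20, adjusted p = 0.00238) with shM5 in limma. Psmb8 and Psmb9, subunits of 1 complex and neighbours on chromosome 17, thus differed between the lines in opposite directions.

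The other 9 genes called lower in TM4 cells were called with shM5. Xaf1 was at -3.07 (SE 0.66, adjusted p = 0.00379), Ifih1 at -1.51 (SE 0.39, adjusted p = 0.00875) and Ddx58 at -0.87 (SE 0.28, adjusted p = 0.0251) in limma. Herc6 was at -0.90 (SE 0.22, adjusted p = 0.00745), Parp14 at -0.90 (SE 0.28, adjusted p = 0.0203) and Parp9 at -0.68 (SE 0.24, adjusted p = 0.035) in limma. Trim25 was at -0.59 (SE 0.15, adjusted p = 0.00767), Eif2ak2 at -0.52 (SE 0.13, adjusted p = 0.00746) and Ifit2 at -0.34 (SE 0.08, adjusted p = 0.00758) in limma. The groups did not overlap for 7 genes higher in TM4 cells with shNC, against 24.3% of all genes, and for 8 lower, against 39.3%. With shM5 there were 5 higher, against 31.2%, and 16 lower, against 45.4%. Further genes passed 0.5 in size without a call. With shNC the largest were Usp18 at 2.81 (SE 1.01, adjusted p = 0.0502), Ifit3b at 2.67 (SE 1.06, adjusted p = 0.0688), Cmpk2 at 2.12 (SE 0.90, adjusted p = 0.0819) and Isg15 at 1.70 (SE 0.64, adjusted p = 0.0577) in limma. Oasl1, Rtp4, Irf9, Oas1a and Xaf1 were at 1.66 (SE 0.93, adjusted p = 0.168), 1.62 (SE 0.83, adjusted p = 0.14), 1.37 (SE 0.63, adjusted p = 0.105), 1.10 (SE 0.51, adjusted p = 0.11) and -1.35 (SE 0.65, adjusted p = 0.119) in limma. In this shNC comparison Cmpk2 and Ifit3b passed the filter only through replicates 1 and 2 of TM4 shNC. With shM5 the uncalled genes above 0 were Ifit3b, Rtp4, Isg15 and Usp18 at 1.17 (SE 0.53, adjusted p = 0.0813), 0.86 (SE 0.42, adjusted p = 0.0992), 0.83 (SE 0.44, adjusted p = 0.121) and 0.70 (SE 0.80, adjusted p = 0.452) in limma. Those below 0 were Oas1a, Gbp2, Gbp3, Oasl2 and Irf7 at -0.97 (SE 0.48, adjusted p = 0.105), -0.87 (SE 0.35, adjusted p = 0.0547), -0.85 (SE 0.47, adjusted p = 0.139), -0.80 (SE 0.52, adjusted p = 0.201) and -0.53 (SE 0.58, adjusted p = 0.43) in limma. Ifit3b averaged 0.40 RPKM in C18-4 shM5 and passed the filter with shM5 only through TM4 cells. Without replicate 3 of TM4 shNC, limma called 24 genes higher and 6 lower with shNC, against 27% and 42% of all genes (69.1% together).

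**Figure D4:**
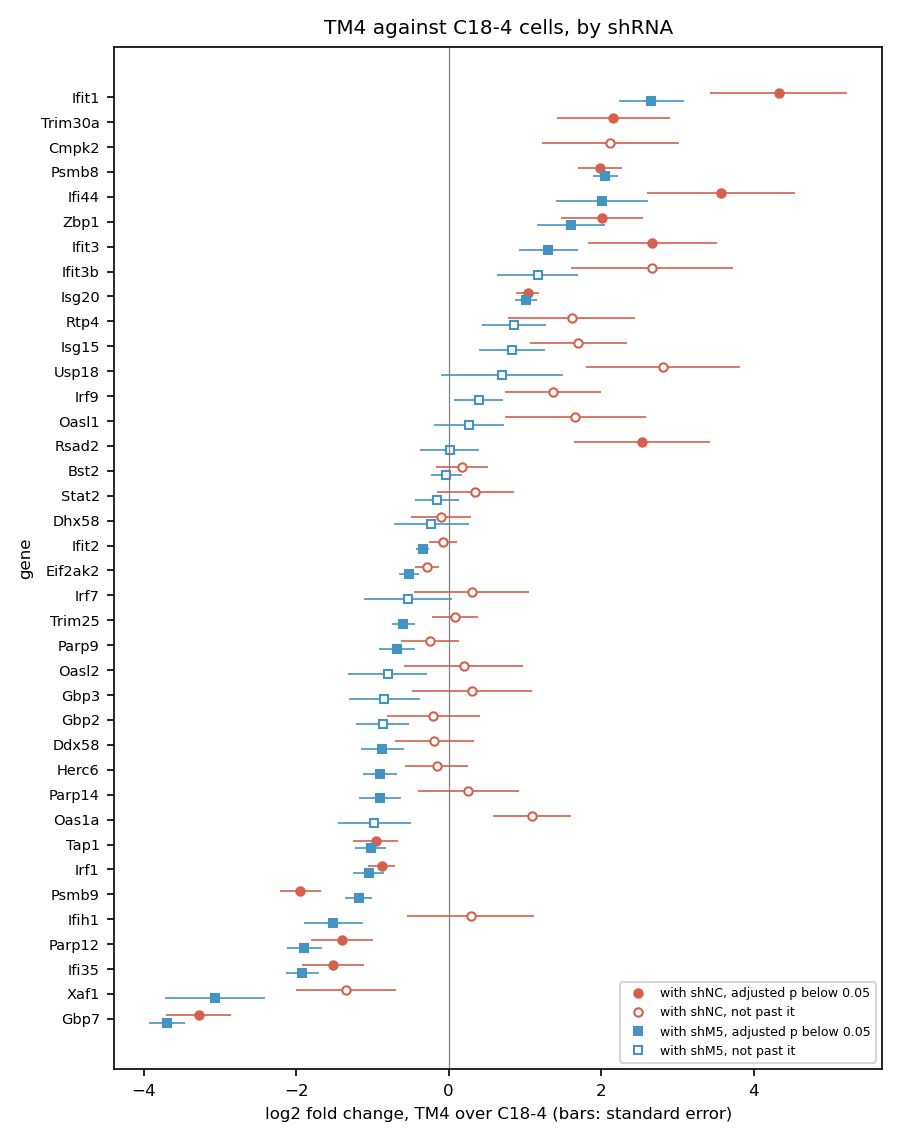
Log2 fold change of TM4 over C18-4 cells on the log2(RPKM + 0.1) scale (horizontal axis) for each gene tested (vertical axis), with shNC (circles) and shM5 (squares), bars at the standard error and filled symbols past an adjusted p of 0.05. Ifit1 lies farthest to the right at 4.33 with shNC and Gbp7 farthest to the left at -3.69 with shM5, and most circles have wider bars than the squares. Gbp7 passed the filter only through C18-4 cells.

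The genes that start the pathway were looked at in the same way. Of 12 interferon genes, 4 were in the table, and none reached the mean needed for a test. Ifng was at most 0.27 RPKM and Ifnb1 at most 0.09 RPKM, both in TM4 shNC, and Ifne and Ifnab were listed at 0 in all 12 libraries. The subunits of the type I receptor were present in both lines, Ifnar1 at 13.01 to 16.5 RPKM in C18-4 and 11.2 to 14.7 RPKM in TM4 cells, and Ifnar2 at 49.4 to 77.6 and 41.4 to 54.6 RPKM. Ifnlr1, which binds interferon lambda, was at 0.67 to 1.62 RPKM in C18-4 cells and listed at 0 in all TM4 libraries. Of the receptor genes, 4 of 5 tested were called lower in TM4 cells with shNC, against 34.7% of all genes, and 4 of 6 with shM5, against 42.5%. Ifnlr1, tested only with shM5, is among those lower calls and passed the filter only through C18-4 cells. The kinase Jak1 was at 42.1 to 46.02 RPKM in C18-4 and 70.1 to 71.9 RPKM in TM4 cells and was called higher in TM4 cells under both hairpins, while 3 of the 7 kinases and STATs were called lower with shNC and 1 with shM5. Between shM5 and shNC, limma called none of the receptors, of the 7 receptor kinases and STATs, of the sensing adaptors and kinases or of the negative regulators in either line. At an unadjusted p below 0.05 there were 0, 1, 3 and 5 of these in TM4 cells and 0, 1, 2 and 1 in C18-4 cells, against 26 percent and 12.3% of all genes. With the replicate block in C18-4 cells it called Ifnar2 and Jak2 lower among the receptors and kinases, 3 of 15 sensing genes higher, and 1 of 11 negative regulators higher and 1 lower. In the same blocked fit it called 3 higher and 5 lower of 48 other interferon-responsive genes, 1 higher and 2 lower of 11 antigen-presentation genes, and 1 higher and 3 lower of the 16 stress genes, against 5.21% higher and 6.73% lower of all genes. Between the lines, limma called 3 of 15 sensing genes higher and 8 lower in TM4 cells with shNC and 4 higher and 7 lower with shM5, and 1 of 11 negative regulators higher and 4 lower with shNC and 2 higher and 3 lower with shM5. Of all genes 20.5% were higher and 34.7% lower with shNC and 29% and 42.5% with shM5.

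A second list of 57 genes known to respond to interferon, 47 of them tested in TM4 cells, was used to see how far the order of the libraries went. The 3 levels were kept by 28 of the 47 (59.6%), against 10.2% of all genes. The most abundant were Ifitm3, at 555, 510.4 and 434 RPKM with shNC and 588, 639 and 406 RPKM with shM5 in TM4 cells, Ifitm2, at 313, 296 and 473 RPKM with shNC and 494, 515 and 433 RPKM with shM5, and the chemokine Ccl5, at 306, 311 and 73.7 RPKM with shNC and 224, 243 and 72.5 RPKM with shM5. Of these, only Ccl5 kept the order, and Ifitm2 was lowest in replicates 1 and 2 of shNC. Cxcl10, a chemokine called higher in TM4 cells under both hairpins, was at 382, 391 and 54.4 RPKM with shNC and 111, 109 and 40.05 RPKM with shM5 in TM4 cells and at 24, 24.4 and 30.8 RPKM with shNC and 18.96, 19.02 and 35.4 RPKM with shM5 in C18-4 cells. limma called 0 of the 47 between shM5 and shNC with all libraries (6 at an unadjusted p below 0.05, against 26 percent of all genes), and 7 higher and 29 lower of 49 without replicate 3 of TM4 shNC, against 36.5% and 30.9% of all genes. Between the lines it called 15 higher and 12 lower of 49 with shNC and 17 higher and 22 lower of 46 with shM5, against the same shares of all genes, 20.5% and 34.7% with shNC and 29% and 42.5% with shM5.

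A list of 12 further genes of antigen presentation, 11 of them tested, was looked at last. In TM4 cells 3 of the 11 (27.3%) kept the order, against 10.2% of all genes, and replicate 3 of both groups was lowest for 6 (54.5%), against 14.3%. Of the 11, limma called 0 between shM5 and shNC in either line. At an unadjusted p below 0.05 there were 1 in TM4 and 2 in C18-4 cells, against 26 percent and 12.3% of all genes. In TM4 cells 8 were called lower than in C18-4 cells with shNC and 0 higher, against 34.7% and 20.5% of all genes. With shM5 9 were lower and 1 higher, against 42.5% and 29%. H2-K1, a class I heavy chain that presents peptides, was at 67.4, 65.1 and 42.5 RPKM with shNC and 57.1, 61.1 and 42.1 RPKM with shM5 in TM4 cells and at 146, 144 and 192 RPKM with shNC and 146, 140.2 and 188 RPKM with shM5 in C18-4 cells. Tap1 and Psmb9, of the same route, were lower in TM4 cells too, and Psmb8 was higher.

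The promoter motifs were set beside the fold changes. In TM4 cells the 14 tested genes with an ISRE core in the window had a median log2 fold change of -1.38 (from -2.56 to -0.05), and all 14 were lower with shM5. The 17 tested genes with a window but no core had a median of -0.63 (from -2.10 to 0.59), and 15 were lower. The ranges overlapped and the split was given no test. In C18-4 cells the medians were -0.06 for 13 genes with the core and -0.05 for 16 without it.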

How the data were processed

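RNA of 12 libraries was measured by mRNA sequencing after oligo(dT) selection on an Illumina HiSeq instrument. The authors aligned reads with SOAPaligner and deposited RPKM values per gene with 2 decimals, with no counts, so depth is unknown. The build and annotation were not given in the sources used here. RPKM summed over genes to 506413 to 540231 per library, which is not a depth.

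Genes were kept where the fitted libraries averaged 0.5 RPKM or more, and tested on log2(RPKM + 0.1) with limma 3.58.1 (R 4.3.3), empirical Bayes moderation with a mean-variance trend, and Benjamini-Hochberg adjustment over all genes tested. A call was an adjusted p below 0.05. The limma fold changes understate low genes, because of the added 0.1. Sequence counts used Python 3.11.15. Each comparison was tested on simulated data: of 200 genes changed by 2 on the log2 scale, 95.5% were recovered in C18-4 cells, 89% in TM4 cells, 86.5% and 95.5% between the lines with shNC and shM5, and 93% for the difference between lines. The simulated noise was independent for each gene and library, so no library shifted as a whole, as replicate 3 of TM4 shNC did. These shares therefore check the code and do not give the power of the fits on the measured libraries.

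Groups and replicate numbers came from the labels. The deviations from the group means of same-numbered C18-4 libraries correlated at 0.439, 0.409 and 0.631 over 11611 genes, and the numbers were taken as pairs. The swapped pairs came close, at 0.341 for replicate 1 of shNC with replicate 2 of shM5 and 0.345 for replicate 2 with replicate 1. Replicate 3 is thus clearly paired, while the pairing of replicates 1 and 2 is less sure. For TM4 cells see the closing section.

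Members and lists were chosen with earlier results of these data known. Values in every library are given for members averaging 1 RPKM or more in a group, and fold changes for members called or with an absolute log2 fold change of at least 0.5. Of other lists, the genes called and up to 3 with the highest mean may be named. Other lists were interferon ligands, receptors, receptor kinases and STATs, sensing genes, negative regulators, other interferon-responsive genes, antigen presentation, stress genes and cell type markers. The alternatives were a replicate block, each library left out, library weights, quantile and median scaling, pseudocounts of 1 and 0.01, a minimum mean of 1 RPKM or none, no trend, a fit of all 12 libraries, and a stricter threshold. A restriction to replicates 1 and 2 was chosen after seeing the data.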

Additional observations from a re-analysis of the deposited data

How the results depend on the processing

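Members called by limma moved as follows, and the cause was not tested. Between shM5 and shNC in C18-4 cells, library weights called 2 higher and 7 lower, the replicate block 3 lower, and replicates 1 and 2 alone 4 higher and 7 lower, against 0 and 0. Among all genes, library weights called 1404 higher and 1415 lower of 11611 and the replicate block 605 and 781. Replicates 1 and 2 alone called 1482 and 1547 of 11549 genes. In TM4 cells library weights called 1 higher and 33 lower, replicates 1 and 2 alone 1 and 33, and leaving out a library 0 to 1 higher and 0 to 33 lower, with 1 and 33 only without replicate 3 of shNC. Most genes of the table were called in these settings too. Library weights called 4649 higher and 3803 lower of 11016 genes and replicates 1 and 2 alone 4403 and 3613 of 11030. Without replicate 3 of shNC the calls were 4026 higher and 3407 lower of 11026 genes. Between the lines with shNC, 8 higher became 13 with quantile normalization, 30 with library weights, 30 in replicates 1 and 2, 0 at an adjusted p of at most 0.001 with a log2 fold change of at least 1, and 3 to 24 with a library left out. The 6 lower became 2 at that threshold and 3 to 6 with a library left out. With shNC, 24 were higher without TM4 shNC replicate 3, 3 or 4 without any other library, and 3 were lower without replicate 1 or 3 of C18-4 shNC. Among all genes with shNC, library weights called 4292 higher and 5854 lower of 11810. Replicates 1 and 2 alone called 4156 and 5579 of 11726 genes. With a library left out, 1773 to 3191 were called higher and 3200 to 4962 lower of 11703 to 11812 genes. With shM5, 6 higher became 10 with quantile normalization, 12 with library weights, 10 in the fit of all 12 libraries, 17 in replicates 1 and 2, 3 at the stricter threshold, and 3 to 11 with a library left out (3 without TM4 shM5 replicate 2 and 11 without replicate 3). The 15 lower became 8 with all 12 libraries and 4 at the stricter threshold. Among all genes with shM5, library weights called 4168 higher and 5438 lower of 11737. The fit of all 12 libraries called 3433 and 5163 of 11773 genes, and replicates 1 and 2 alone 4054 and 5208 of 11685. With a library left out, 2959 to 3886 were called higher and 4601 to 5055 lower of 11652 to 11768 genes. The share of all genes at the stricter threshold is not given here, and no reading about the list is drawn from those counts. For the difference between the lines, 0 lower became 27 with library weights, 31 (and 1 higher) in replicates 1 and 2, and 0 to 25 with a library left out (25 without TM4 shNC replicate 3). Among all genes, library weights called 3790 higher and 3005 lower of 11773. Replicates 1 and 2 alone called 3898 and 3124 of 11724 genes, and the fit without TM4 shNC replicate 3 called 2538 and 1939 of 11793. The weights did not fully converge in 3 fits.

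The log2 fold change of Irf7 between the lines with shM5 turned from -0.53 to 0.19 with library weights and 0.49 in replicates 1 and 2, and lay between -0.97 and 0.17 with a library left out. That of Oas1a turned from -0.97 to 0.062 with all 12 libraries. No other fold change of a named member changed sign.

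Same-numbered TM4 libraries correlated at 0.0729, 0.0489 and 0.127 in their deviations, so the numbers were not taken as pairs, and not every library correlated best with its own number. With the replicate block, limma called 0 of 37 in TM4 cells, with 27 at an unadjusted p below 0.05, against 23.3% of all genes. It called 6 higher and 4 lower between the lines with shNC, against 1959 and 3482 of 11810 genes. With shM5 it called 6 higher and 12 lower, against 3172 and 4688 of 11737 genes, and for the difference it called 0.

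Read numbers are unknown, so values under about 1 RPKM carry a counting error that was not measured. With 3 libraries a group, 1 library decides most calls in TM4 cells.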
